A study of Mus musculus with 32 samples.

Results

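The 34 genes described here encode lysosomal enzymes, their activator proteins and proteins of the lysosomal membrane. They were taken from a list of gene symbols with known roles in the lysosome, and all 34 were found among the 42524 genes of the count table. The list was chosen with earlier results of these data known. Shares of the 34 genes set beside those of all genes therefore describe this list only. RNA had been sequenced from the spinal cord of 32 mice in 8 groups of 4. G93A mice carried the human SOD1 transgene with the G93A mutation on the C57BL/6J background (B6-Tg(SOD1-G93A)1Gur/J), a model of amyotrophic lateral sclerosis in which the human SOD1 promoter drives the mutant protein in all cells. WT mice were littermates without the transgene. Mice of both genotypes were untreated or had been given OKN-007, a nitrone with antioxidant and anti-inflammatory properties, in the drinking water. The labels place 16 mice at 90 days and 16 at 155 days, and the study's methods give the earlier age as 95 days. The labels give no dose. The study used a lower and a higher dose, and 95 and 155 days are the ages at which its methods place cohorts on the higher dose, although its RNA sequencing methods name none. The human transgene was not analysed here. Each mouse is named below by its sample number in the labels, which runs from 1 to 16 at each age and marks different animals at the 2 ages.

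Lysosomes are acidic organelles that break down proteins, glycans, lipids and glycogen delivered by endocytosis, phagocytosis and autophagy. Their soluble enzymes mature in the lumen behind a membrane protected by heavily glycosylated proteins, and inherited loss of many of these enzymes causes storage disease, often with neurodegeneration. In the central nervous system every cell type has lysosomes, and microglia, the resident phagocytes, are especially rich in them. Many lysosomal genes carry an E-box in the promoter that TFEB and related factors of the MiT/TFE family can bind.

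The libraries held from 19701722 to 30138257 counted reads (median 26658755), so that 3 counts in the smallest correspond to 0.152 CPM. Levels are given as CPM, that is, relative to the library size scaled by edgeR's TMM factors over all 32 libraries. All 32 mice expressed Xist. Markers of the spinal cord were present, such as Chat of cholinergic motor neurons at a mean of 30 CPM in untreated WT mice at 155 days. A few libraries stood apart in RNA of other tissues. Liver transcripts summed to 181 CPM in untreated G93A mouse 12 at 155 days, to 122 CPM in OKN-007-treated G93A mouse 15 at 155 days and to 73 CPM in OKN-007-treated WT mouse 6 at 90 days, and Schwann cell transcripts summed to 1650 CPM in untreated WT mouse 3 at 90 days. Leaving out these 4 mice was a choice made after seeing the data. Without them, 29 of the 34 genes rose in G93A against WT mice at 155 days, both in untreated and in treated mice. The share of all genes in that fit is not given here. With all mice, 30 rose in untreated mice, where 21.3% of all genes did, and 29 in treated mice, where 23.3% did. Untreated G93A mouse 10 at 90 days was kept. It was the smallest library, with Schwann cell transcripts summing to 373 CPM against 99.5 to 119 CPM in the other mice of its group.

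At 155 days, most of the lysosomal genes were higher in untreated G93A than in untreated WT spinal cord. By edgeR's quasi-likelihood test with Benjamini-Hochberg adjustment over all genes, 30 of the 34 rose, 0 fell and 4 did not pass an adjusted p of 0.05. Over all 18675 genes tested in this comparison, 39.5% passed, 21.3% as higher and 18.2% as lower. The median log2 fold change of the 34 genes was 0.70, against 0.00 over all genes, with a range from -0.22 to 4.56. Of the genes that rose, 11 were over 2-fold higher and 19 were less than 2-fold higher. In 27 of the 34 genes every untreated G93A mouse lay above every untreated WT mouse, against 15.6% of all genes, and in 0 the opposite held, against 17.7%. The share of all counts that fell on the 34 genes was 0.348% ± 0.0118 (SD, n = 4) in untreated WT and 0.572% ± 0.0683 (SD, n = 4) in untreated G93A mice at 155 days. In RNA from a piece of whole spinal cord, more cells of a type and more RNA per cell cannot be told apart.

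**Figure D1:**
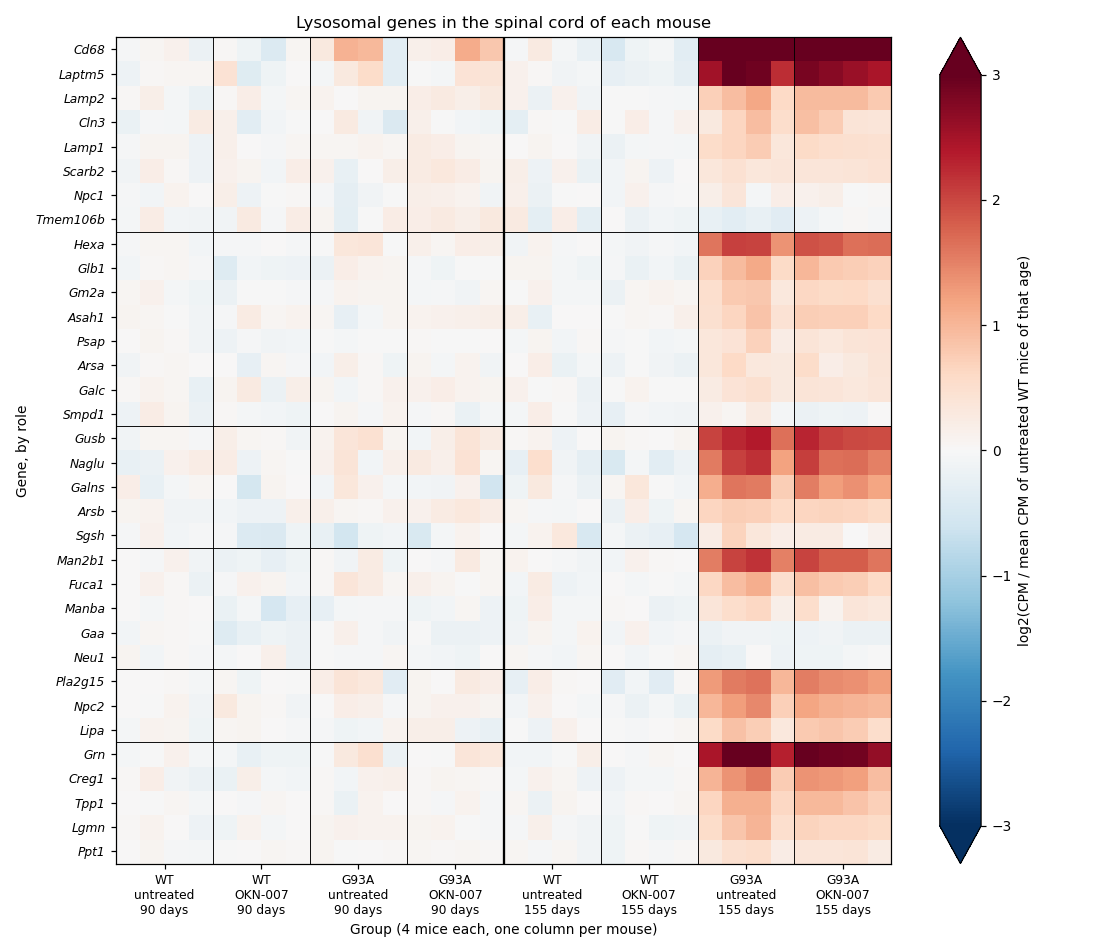
Heat map of the 34 genes (vertical axis, grouped by role) in each of the 32 mice (horizontal axis, 4 columns per group). Colour gives log2 of CPM over the mean CPM of untreated WT mice of the same age, cut at -3 and 3; the 8 G93A mice at 155 days all lie above the 8 WT mice for 26 genes, with the deepest red for Cd68, Grn and Laptm5, and the 90-day columns are paler.

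Among the 8 membrane proteins, 7 rose, with a median log2 fold change of 0.64. Cd68 (ENSMUSG00000018774, chr11:69664213-69666153, minus strand of GRCm38) encodes macrosialin, a lysosomal glycoprotein of macrophages and microglia. It was at 88.7, 125, 122 and 62.5 CPM in the untreated G93A mice (99.5 ± 29.7, mean ± SD, n = 4) and at 4.26, 5.24, 4.20 and 3.73 CPM in the untreated WT mice (4.36 ± 0.634). All 4 G93A mice were therefore far above the WT mice, and the log2 fold change was 4.56 (SE 0.21, adjusted p = 1.42e-11), or 23.6-fold.

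Laptm5 (ENSMUSG00000028581, chr4:130913125-130936141, plus strand) encodes a lysosomal transmembrane protein of haematopoietic cells. It was at 133, 188, 175 and 109 CPM in untreated G93A and at 25.6, 23.7, 21.5 and 22.5 CPM in untreated WT mice. The groups did not overlap, and the log2 fold change was 2.74 (SE 0.14, adjusted p = 2.96e-11). The other membrane proteins moved less than Cd68 and Laptm5. Lamp2, the membrane glycoprotein needed for chaperone-mediated autophagy, rose by 0.91 on the log2 scale. Its relative Lamp1 rose by 0.63, Cln3, whose loss causes juvenile Batten disease, by 0.65, and Scarb2, an abundant glycoprotein of the lysosomal membrane, by 0.42.

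Npc1, which exports cholesterol from lysosomes, and Tmem106b, a membrane protein that shapes lysosome size and transport, were at the low end. Npc1 was at 92.1, 105, 78.3 and 94.0 CPM in untreated G93A and at 90.6, 71.8, 81.1 and 82.0 CPM in untreated WT mice, so that the groups overlapped. Its log2 fold change of 0.23 (SE 0.08) passed with an adjusted p of 0.035, and the call was lost without any 1 of untreated G93A mouse 10 or 12 or untreated WT mouse 2 or 3, with adjusted p between 0.0652 and 0.099. Tmem106b (ENSMUSG00000029571, chr6:13069759-13089269, plus strand) was at 105, 98.7, 105 and 96.5 CPM in untreated G93A mice. In untreated WT mice it was at 146, 99.9, 141 and 100 CPM, a split between mice 1 and 3 and mice 2 and 4 that no other group at 155 days showed to that extent. The split was not particular to Tmem106b, as Scarb2 and Lamp2 were also higher in WT mice 1 and 3, whereas Fuca1 was not. The log2 difference of Tmem106b was -0.22 (SE 0.10, adjusted p = 0.102), and it passed at -0.28 without either WT mouse 2 (adjusted p = 0.0357) or WT mouse 4 (adjusted p = 0.0329).

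**Figure D2:**
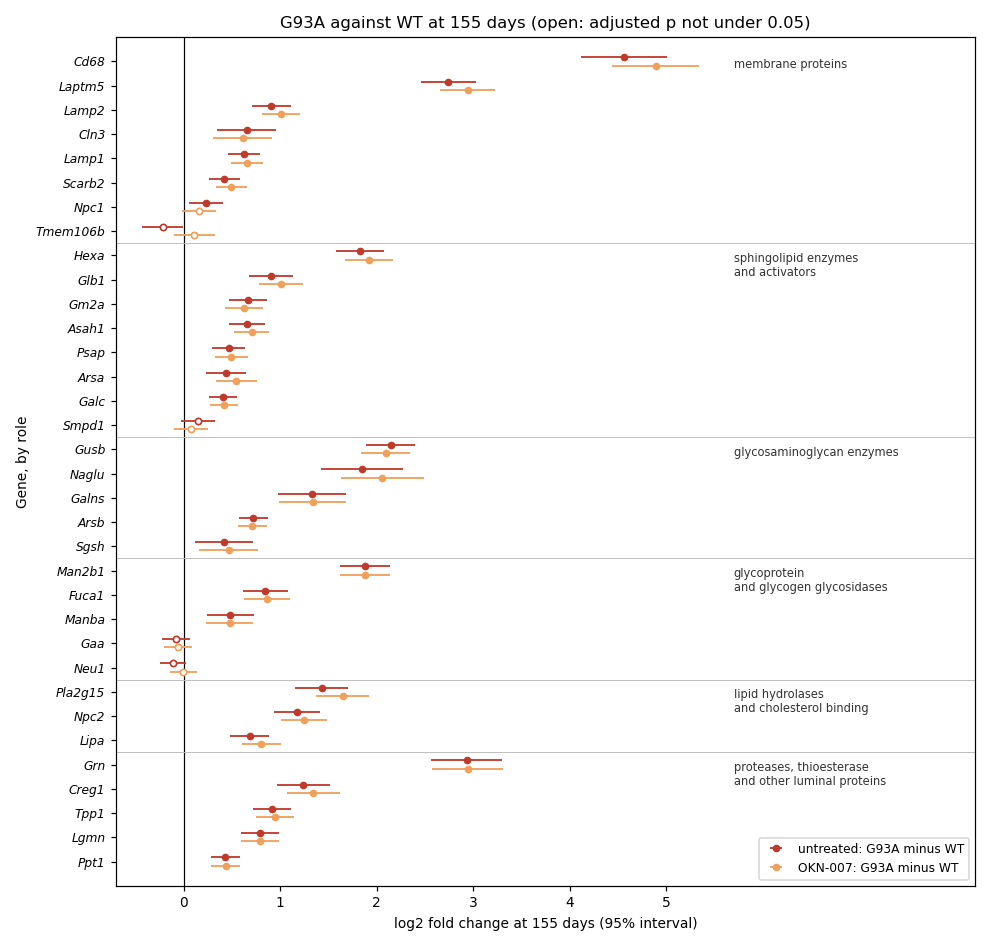
Log2 fold change of G93A over WT at 155 days (horizontal axis) for each of the 34 genes (vertical axis, by role) with 95% intervals, in untreated mice and in OKN-007-treated mice (4 mice per group). Filled points passed an adjusted p of 0.05; 30 untreated and 29 OKN-007 estimates are filled, all to the right of 0.

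Of the 8 enzymes and activators of sphingolipid breakdown, 7 rose, with a median of 0.56 on the log2 scale. Hexa encodes the alpha subunit of beta-hexosaminidase, which removes a sugar from ganglioside GM2 and is lost in Tay-Sachs disease. It was at 146, 200, 196 and 123 CPM in untreated G93A and at 44.5, 51.9, 47.2 and 48.8 CPM in untreated WT mice, and its log2 fold change was 1.83 (SE 0.12, adjusted p = 7.89e-10). Gm2a, the activator protein that presents GM2 to that enzyme, rose by 0.66. Glb1, the beta-galactosidase lost in GM1 gangliosidosis, rose by 0.90, and Asah1, acid ceramidase, by 0.66. Smaller rises were seen for Psap (0.47), the precursor of the saposins, for Arsa (0.44), the sulfatidase lost in metachromatic leukodystrophy, and for Galc (0.41), the galactosylceramidase lost in Krabbe disease.

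Smpd1 (ENSMUSG00000037049, chr7:105554360-105558389, plus strand), acid sphingomyelinase, was the member of this role that did not pass. Its levels were 60.6, 57.6, 67.5 and 53.5 CPM in untreated G93A and 53.1, 63.7, 55.4 and 50.2 CPM in untreated WT mice. The groups overlapped, and the log2 difference was 0.15 (SE 0.09, adjusted p = 0.171). Without WT mouse 2, its highest WT mouse, the difference was 0.25 and passed (adjusted p = 0.0173).

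All 5 enzymes of glycosaminoglycan breakdown rose, with a median of 1.33 on the log2 scale, and each is lost in a mucopolysaccharidosis. Gusb (ENSMUSG00000025534, chr5:129989011-130003049, minus strand), beta-glucuronidase, was at 53.2, 62.6, 67.8 and 41.4 CPM in untreated G93A and at 13.5, 14, 11.7 and 13.3 CPM in untreated WT mice. The lowest G93A mouse was above the highest WT mouse, and the log2 fold change was 2.14 (SE 0.12, adjusted p = 1.45e-10). The heparan sulfate enzyme Naglu rose by 1.85 and Galns, which acts on keratan sulfate, by 1.33. Arsb, which acts on dermatan sulfate, rose by 0.72, with some of the closest agreement between mice (84.2 to 93.1 CPM against 53.5 to 58.6 CPM). Sgsh, the heparan N-sulfatase, rose by 0.42 with overlapping groups, at 11, 14.9, 11.9 and 10.8 CPM in untreated G93A and 8.98, 10.1, 11.7 and 6.73 CPM in untreated WT mice. Its adjusted p was 0.0269, and it did not pass without untreated G93A mouse 10 or untreated WT mouse 1 or 4 (adjusted p between 0.0647 and 0.0972).

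Among the 5 glycosidases that act on glycoproteins and glycogen, 3 rose and 2 did not pass. Man2b1 (ENSMUSG00000005142, chr8:85083270-85098282, plus strand), the lysosomal alpha-mannosidase, was at 96.7, 136, 150 and 95.6 CPM in untreated G93A and at 36.1, 34.1, 32.8 and 31.3 CPM in untreated WT mice. Its log2 fold change was 1.88 (SE 0.12, adjusted p = 8.79e-10). Fuca1, which removes fucose, rose by 0.85 and the beta-mannosidase Manba by 0.49, the latter with overlapping groups.

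Gaa and Neu1 had slightly lower means in G93A mice and did not pass the test. Gaa (ENSMUSG00000025579, chr11:119267887-119285454, plus strand), the glycogen-degrading acid alpha-glucosidase of Pompe disease, was at 206, 214, 216 and 211 CPM in untreated G93A and at 214, 245, 221 and 247 CPM in untreated WT mice (log2 difference -0.08, SE 0.07, adjusted p = 0.364). Neu1 (ENSMUSG00000007038, chr17:34931253-34935953, plus strand), the lysosomal sialidase, was at 64.5, 66.4, 77.8 and 69.8 CPM in untreated G93A and at 81.0, 75.8, 73.5 and 80.3 CPM in untreated WT mice (log2 difference -0.11, SE 0.07, adjusted p = 0.191). Their 95% intervals, from -0.23 to 0.06 for Gaa and from -0.25 to 0.03 for Neu1, lay below the point estimates of all 30 genes that rose.

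The 3 genes of lipid hydrolysis and cholesterol binding rose, with a median of 1.17. Pla2g15, a lysosomal phospholipase, rose by 1.43, Npc2, the soluble cholesterol-binding partner of Npc1, by 1.17, and Lipa, the acid lipase of cholesteryl esters, by 0.68. Npc2 and Npc1, which act in sequence in cholesterol export, thus differed in size, with Npc2 at 217, 262, 297 and 178 CPM in untreated G93A against 103, 119, 109 and 104 CPM in untreated WT mice.

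All 5 proteases and other luminal proteins rose, with a median of 0.91. Grn (ENSMUSG00000034708, chr11:102430315-102437048, plus strand) encodes progranulin, a secreted and lysosomal glycoprotein whose complete loss causes a neuronal ceroid lipofuscinosis. It was at 283, 438, 546 and 261 CPM in untreated G93A and at 49.0, 48.3, 50.8 and 58.0 CPM in untreated WT mice. The groups were far apart although the G93A mice spread over a wide range, and the log2 fold change was 2.93 (SE 0.17, adjusted p = 2.45e-10). Creg1, a secreted and lysosomal glycoprotein, rose by 1.24, the peptidase Tpp1 by 0.91, the asparaginyl endopeptidase Lgmn by 0.79 and the thioesterase Ppt1 by 0.43. Tpp1 and Ppt1 are the enzymes lost in late-infantile and infantile Batten disease. Exons of Grn overlap those of Fam171a2 on the other strand, and 10 further members overlap another gene in this way or on the same strand, and whether the counting used strand was not stated.

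**Figure D3:**
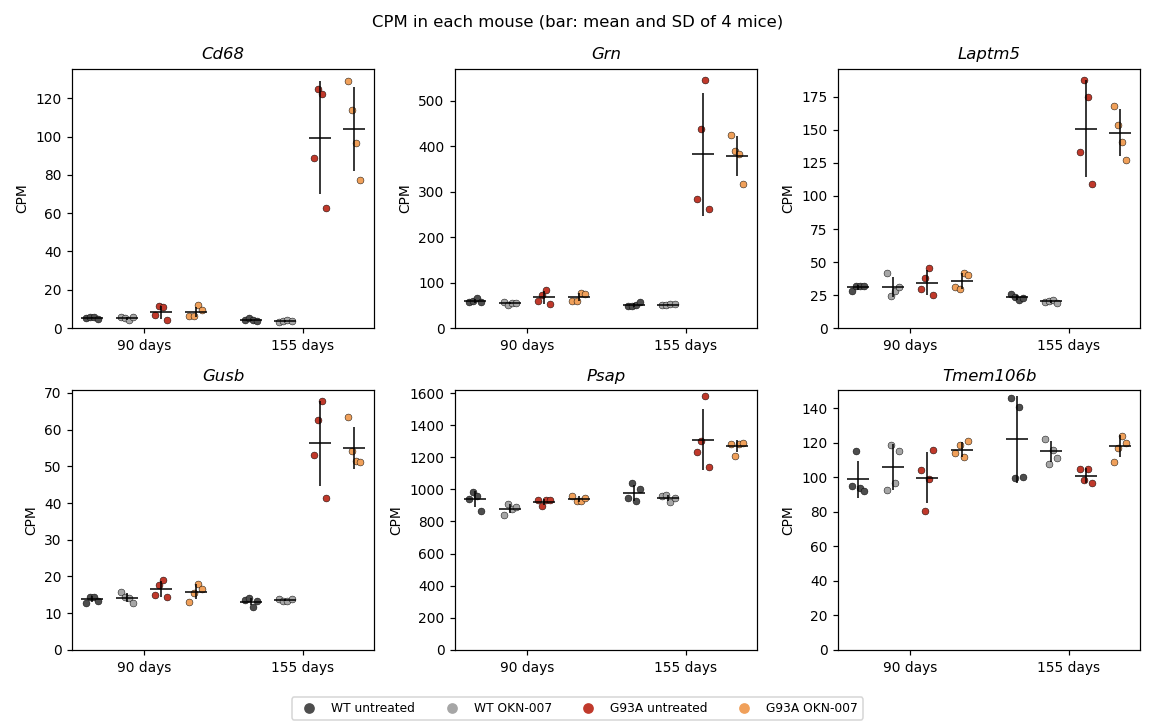
CPM of Cd68, Grn, Laptm5, Gusb, Psap and Tmem106b (vertical axes, from 0) in each mouse at 90 and 155 days (horizontal axes), coloured by genotype and treatment, with bars for the mean and SD of 4 mice. Cd68 lies between 62.5 and 129 CPM in the 8 G93A mice at 155 days and between 3.15 and 5.24 CPM in the 8 WT mice, and Tmem106b overlaps between genotypes at both ages.

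The same comparison among OKN-007-treated mice at 155 days gave 29 genes that rose and 0 that fell, where 41.5% of the 18675 genes passed, 23.3% as higher. All 29 were among the 30 that rose in untreated mice, and the remaining gene was Npc1 (log2 difference 0.16, adjusted p = 0.14). An unadjusted p under 0.05 was reached by 29 members, against 48.9% of all genes. The treated and untreated comparisons used separate mice. The median log2 fold change was 0.75 against 0.02 over all genes. Cd68 was at 129, 114, 96.9 and 77.5 CPM in treated G93A and at 3.15, 3.96, 4.16 and 3.52 CPM in treated WT mice, a log2 fold change of 4.89 (SE 0.22, adjusted p = 5.73e-12). Laptm5 followed at 2.94, Grn at 2.94, Gusb at 2.09 and Naglu at 2.06. In 29 genes every treated G93A mouse was above every treated WT mouse, against 20.2% of all genes, and Gaa was the 1 gene with every treated G93A mouse below (25.2% of all genes), at 203 to 216 CPM against 217 to 254 CPM. Tmem106b was at 109, 117, 124 and 120 CPM in treated G93A and at 122, 108, 116 and 111 CPM in treated WT mice (log2 difference 0.11, adjusted p = 0.411).

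With the treatments pooled at 155 days, 30 of the 34 rose and 0 fell, where 54.7% of all genes passed, 28.8% as higher. In 26 of the 34 the 8 G93A mice lay above all 8 WT mice, against 12.4% of all genes.

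The untreated G93A mice at 155 days differed from each other in a shared way. Mice 10 and 11 were the 2 highest in 28 of the 34 genes, and mouse 12 was the lowest in 28. The mean log2 CPM over the 34 genes was 6.278, 6.541, 6.604 and 6.143 in mice 9 to 12. The median coefficient of variation over the 34 genes was 16.4% in this group, 8.3% in treated G93A mice and 8.6% in untreated WT mice of the same age. Among treated G93A mice, mouse 13 was the highest in 22 genes and mouse 16 the lowest in 23.

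Markers of microglia were likewise higher in mice 10 and 11 than in mice 9 and 12. Their mean log2 CPM over 11 genes, none of them among the 34, was 6.052, 6.604, 6.595 and 6.004 in untreated G93A mice 9 to 12. All 11 markers rose in untreated G93A mice (median log2 fold change 2.08, from 0.39 to 3.86), and their summed level was 254 to 311 CPM in untreated WT and 1070 to 1930 CPM in untreated G93A mice. Among these 11, P2ry12, Sall1 and Tmem119 rose by 0.39, 0.45 and 0.65, and C1qa and C1qb by 3.55 and 3.27. Changes of the other markers, among them Cx3cr1, Fcrls and Siglech, are not given singly. Astrocyte markers rose for 6 of 7 genes (summed level 4690 to 5160 CPM in WT, 13100 to 17000 CPM in G93A), and all 5 markers of neurons and 5 of 6 markers of motor neurons fell (summed motor neuron level 129 to 196 CPM in WT, 70.4 to 92.7 CPM in G93A). Both markers of oligodendrocyte precursors rose (median 0.65; summed level 45.9 to 55.3 CPM in WT, 61 to 95.3 CPM in G93A), as did the 2 T cell markers tested of 3 (median 2.48; 0.0852 to 0.389 CPM in WT, 0.86 to 1.38 CPM in G93A). Of 4 border macrophage markers tested 1 rose (3.41 to 4.35 CPM in WT, 4.12 to 7.11 CPM in G93A), as did 1 of 5 oligodendrocyte and 1 of 3 Schwann cell markers. In untreated G93A mice mean log2 CPM was higher in mice 10 and 11 for markers of astrocytes, oligodendrocyte precursors, oligodendrocytes, Schwann cells and T cells. For astrocytes it was 9.374, 9.677, 9.744 and 9.438 in mice 9 to 12. Neuron markers were lower in mice 10 and 11 (8.641, 8.444, 8.382 and 8.759 in mice 9 to 12). Motor neuron, border macrophage and endothelial markers showed neither order. The part of these cell types in the change of the lysosomal genes was not tested.

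**Figure D4:**
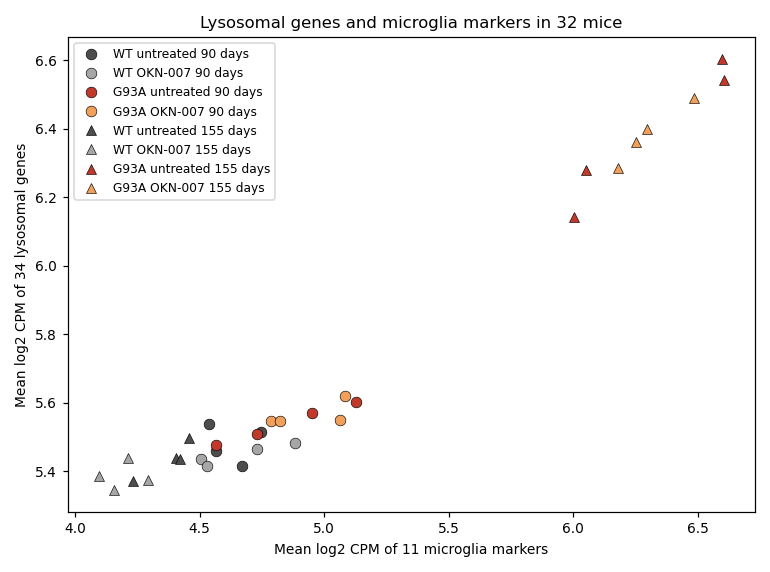
Mean log2 CPM of the 34 lysosomal genes (vertical axis) against mean log2 CPM of 11 microglia markers (horizontal axis) in the 32 mice, with circles for 90 days, triangles for 155 days and colours for genotype and treatment. The 8 G93A mice at 155 days lie apart at the upper right, and the points share their libraries and depth.

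Expression of 7 caudal Hox genes, which are active in the posterior spinal cord, also differed between mice. Their mean log2 CPM was 2.22 ± 0.587 (SD, n = 4) in untreated WT and -0.29 ± 2.18 (SD, n = 4) in untreated G93A mice at 155 days. With this Hox score as a covariate, 27 of the 34 genes rose in untreated G93A mice at 155 days. Npc1 (adjusted p = 0.375), Sgsh (0.277) and Arsa (0.0713) then did not pass. Without the covariate 30 rose, where 21.3% of all genes did. The share of all genes that rose with the covariate is not given here, so the lower count has no background beside it. Among untreated G93A mice at 155 days the Hox score was -2.255, -2.093, 1.48 and 1.708 in mice 9 to 12. The score differed with genotype at this age, and the part of cord position in the lysosomal changes was not tested.

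Levels were compared between genes per kilobase of exon. Psap, Lamp1 and Lgmn were the 3 highest of the 34 in untreated mice of both genotypes at 155 days. Psap was at 356 CPM per kb in WT and 478 CPM per kb in G93A mice, Lamp1 at 196 and 293, and Lgmn at 82.2 and 138. Grn moved from rank 14 of 34 in WT (14.8 CPM per kb) to rank 4 in G93A mice (110), and Cd68 from rank 25 (3.46) to rank 6 (79.2). Cln3 was the lowest of the 34 in both, at 1.24 and 1.90 CPM per kb. Psap and Lamp1, the most abundant, rose by less than the median of the 34 genes on the log2 scale, and Lgmn by slightly more.

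At 90 days, none of the 34 genes passed in G93A against WT mice. The count was 0 in untreated mice (0% of 18899 genes passed), with 4 genes at an unadjusted p under 0.05 where 5.96% of all genes were, and 0 in OKN-007-treated mice (0% of genes), with 5 genes where 3.95% of all genes were. DESeq2 and edgeR's likelihood ratio test also called 0 members in both. Every G93A mouse was above every WT mouse in 1 gene among untreated mice (0.958% of all genes) and in 5 genes among treated mice (1.81% of all genes), and below in 1 among untreated (1.55%) and 0 among treated mice (1.15%). With the treatments pooled, which gives 8 mice per genotype, 0 of the 34 passed by edgeR and by DESeq2, and 5 of 18899 genes did (0.0265%, of which 0.0159% as higher and 0.0106% as lower). The 8 mice of each genotype overlapped in all 34 genes, where 0.0159% of all genes were higher and 0.0265% lower without overlap. In that comparison 7 genes had an unadjusted p under 0.05, or 20.6% of the 34 against 6.61% of all genes. The estimate was above 0 for 30 of the 34 (88.2%, against 51.3% of all genes), with a median of 0.08 against 0.00 over all genes.

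The 3 genes with the smallest p in the pooled comparison at 90 days were Arsb, Cd68 and Grn. Arsb was at 51.5, 48.8, 48.0 and 50.8 CPM in untreated and 51.0, 55.0, 58.1 and 54.1 CPM in treated G93A mice, against 49.3, 50, 43.7 and 43.6 CPM in untreated and 44.1, 41.7, 42.0 and 51.6 CPM in treated WT mice (log2 difference 0.20, SE 0.05, adjusted p = 0.302). Cd68 was at 6.69, 11.3, 10.8 and 4.44 CPM in untreated and 6.09, 6.36, 11.9 and 9.67 CPM in treated G93A mice, against 4.90 to 5.97 CPM in untreated and 4.15 to 5.73 CPM in treated WT mice (log2 difference 0.67, SE 0.18, adjusted p = 0.315). Untreated G93A mouse 12 lay within the WT range of Cd68 and the other 7 G93A mice lay above it. Without that mouse, or without a filter on low counts, Cd68 was the 1 member that passed at 90 days.

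Grn was at 59.5, 73.8, 83.0 and 53.2 CPM in untreated and 60.7, 59.5, 76.8 and 74.4 CPM in treated G93A mice at 90 days, against 57.0 to 65.4 CPM in untreated and 51.6 to 57.4 CPM in treated WT mice (log2 difference 0.26, SE 0.09, adjusted p = 0.551). Untreated G93A mice 10 and 11 at 90 days were the 2 highest of their group for Cd68 and Grn, and also for Laptm5, Hexa and Gusb, which were named here after their values were seen. The 11 microglia markers had a median log2 difference of 0.25 in the pooled comparison at 90 days, with a range from -0.02 to 0.69, and their part in these values was not tested.

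The change of G93A against WT mice was larger at 155 than at 90 days for most of the genes. In a fit of all 32 mice, the difference between the ages in untreated mice passed as higher for 29 of the 34 genes and as lower for 0, where 21.2% of 19829 genes passed, 12.9% as higher. The median difference was 0.65 on the log2 scale against -0.01 over all genes. It was 3.95 for Cd68 (adjusted p = 1.28e-09), 2.72 for Grn (6.66e-10), 2.55 for Laptm5 (2.91e-09), 1.84 for Gusb (1.97e-09) and 1.82 for Man2b1 (9.88e-10). The 5 genes that did not pass were Npc1 (0.30, adjusted p = 0.066), Smpd1 (0.07), Gaa (-0.12), Neu1 (-0.14) and Tmem106b (-0.26). With the Hox score as a covariate 25 genes passed, and the share of all genes in that fit is not given here. With the treatments pooled, 29 of the 34 passed as higher, against 37.5% of all genes in either direction and 19.6% as higher.

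The mean log2 CPM over the 34 genes summarises the course. In untreated WT mice it was 5.48 ± 0.0544 (SD, n = 4) at 90 days and 5.44 ± 0.0515 at 155 days, a difference within the spread of each group. In untreated G93A mice it was 5.54 ± 0.0579 at 90 days and 6.39 ± 0.218 at 155 days. Treated G93A mice were at 5.57 ± 0.0362 and 6.38 ± 0.0852, and treated WT mice at 5.45 ± 0.0296 and 5.39 ± 0.0391. The G93A and WT ranges of this mean overlapped in untreated mice at 90 days (5.475 to 5.602 against 5.415 to 5.536) and lay apart in treated mice of that age (5.545 to 5.619 against 5.415 to 5.481). At 155 days they lay apart in untreated mice (6.143 to 6.604 against 5.37 to 5.496) and in treated mice (6.285 to 6.49 against 5.344 to 5.438). Other RNA also differed between the ages. In untreated WT mice the summed oligodendrocyte markers had a mean of 36120 CPM at 90 and 21880 CPM at 155 days. Effects of age and of any batch of processing on the mean over the 34 genes cannot be told apart.

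**Figure D5:**
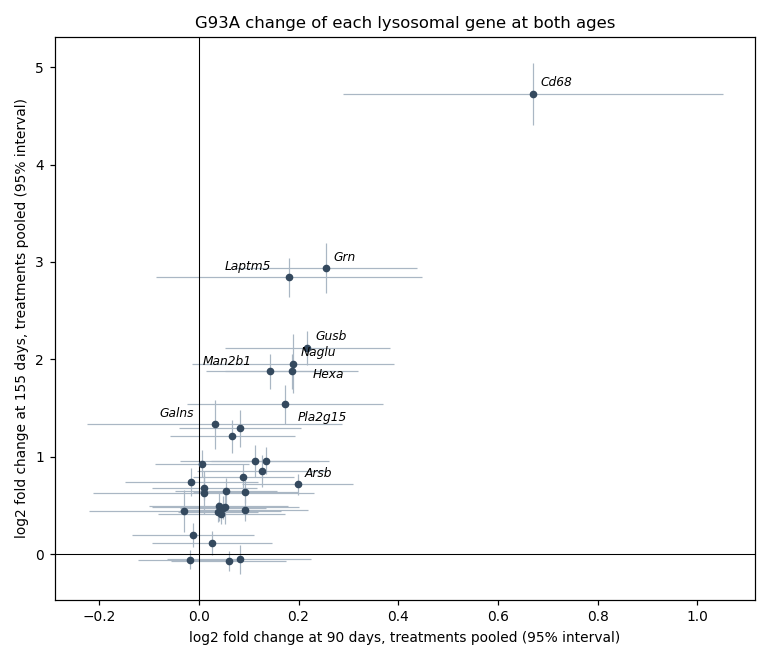
Log2 fold change of G93A over WT with treatments pooled (8 mice per genotype) at 90 days (horizontal axis) and at 155 days (vertical axis) for the 34 genes, with 95% intervals. Cd68 has the highest estimate at both ages (0.67 and 4.73); the scales of the axes differ.

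OKN-007 changed none of the 34 genes past the threshold, in either genotype at either age. In G93A mice at 155 days, 0 of the 34 passed by edgeR and by DESeq2 (0% of all genes by edgeR), and 2 had an unadjusted p under 0.05 where 4.04% of all genes did. The 95% intervals of these 34 log2 differences, treated minus untreated, lay between -0.50 and 0.44. The median difference was -0.02. Cd68 had a mean of 104 ± 22.1 CPM with and 99.5 ± 29.7 CPM without treatment, and Grn of 379 ± 44.4 CPM with and 382 ± 135 CPM without.

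The 2 genes with the smallest p in treated against untreated G93A mice at 155 days were Smpd1 and Tmem106b. Smpd1 was at 49.4, 50.8, 50.3 and 55.6 CPM in treated mice, of which the highest overlapped the untreated range given above (log2 difference -0.21, SE 0.09, adjusted p = 1). Tmem106b was at 109 to 124 CPM in treated and 96.5 to 105 CPM in untreated mice without overlap (1.88% of all genes were higher without overlap), with a log2 difference of 0.22 (SE 0.10, adjusted p = 1). It also had the smallest p in the interaction of genotype and treatment at 155 days (log2 difference of differences 0.33, adjusted p = 1), and was the 1 member with an unadjusted p under 0.05 there, where 2.34% of all genes were. In that interaction 0 members passed by edgeR and by DESeq2 (0% of all genes).

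In G93A mice at 90 days 0 of the 34 passed by either tool (0% of all genes), and Asah1 and Tmem106b were the 2 with an unadjusted p under 0.05, where 5.56% of all genes were. Asah1 was at 77.3, 78.6, 80.3 and 81.2 CPM in treated and 75.8, 60.7, 69.3 and 76.7 CPM in untreated mice (log2 difference 0.15, adjusted p = 0.837). It was 1 of 2 members that were higher without overlap, as were 1.72% of all genes, and 0 were lower without overlap (1.29% of all genes). Tmem106b was at 114, 119, 112 and 121 CPM in treated and 104, 80.4, 98.8 and 116 CPM in untreated mice (log2 difference 0.21, adjusted p = 0.837). The treated mice were closely spaced in both genes, and mouse 10 had the lowest untreated value in both. For Asah1 the other untreated mice, at 69.3 to 76.7 CPM, also lay below the treated mice. For Tmem106b, at 98.8 to 116 CPM, they overlapped them. Mouse 10 was the smallest library and had raised Schwann cell transcripts, as given above. Its part in these differences was not tested.

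In WT mice at 90 days 0 passed by either tool (0% of all genes), and Gaa and Manba had an unadjusted p under 0.05, where 4.07% of all genes did. Gaa was at 161, 180, 190 and 185 CPM in treated and 196, 219, 214 and 207 CPM in untreated WT mice (log2 difference -0.21, adjusted p = 0.993), without overlap. Manba was at 9.68, 10.7, 7.85 and 9.50 CPM in treated and 11.2, 10.8, 11.5 and 11.2 CPM in untreated WT mice (log2 difference -0.24, adjusted p = 0.993), again without overlap. They were 2 of 4 members without overlap in that direction, as were 1.24% of all genes. In WT mice at 155 days 0 of the 34 passed by either tool (0% of all genes) and 0 had an unadjusted p under 0.05, where 2.94% of all genes did. The estimate was below 0 for 29 of the 34, and above 0 for 14.7% of them against 42.2% of all genes, with a median of -0.05 against -0.02 over all genes. The smallest p belonged to Laptm5, at 19.5, 20.7, 21.3 and 19.2 CPM in treated and 21.5 to 25.6 CPM in untreated mice without overlap (log2 difference -0.23, adjusted p = 1; 0.771% of all genes were lower without overlap), and to Sgsh, at 8.96, 8.36, 7.94 and 6.65 CPM in treated and 6.73 to 11.7 CPM in untreated mice (-0.25, adjusted p = 1). The interaction at 90 days gave 0 members by either tool (0% of all genes) and 0 at an unadjusted p under 0.05 (2.81% of all genes).

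The promoters of the 34 genes were searched for the E-box CACGTG and for its extension TCACGTG, which contains it and is the core of the sequence that TFEB and its relatives bind in many lysosomal genes. RefSeq promoters on GRCm38.p6, from 250 bases before to 50 bases after the annotated start, were at hand for 31 of the 34. TCACGTG, on either strand, was in 8 of these 31 (25.8%) and in 1160 of all 27025 genes with a promoter (4.29%). It was likewise in 8 of 31 other lysosomal genes with a promoter (25.8%), which are described below. The 8 members were Lamp1, Cln3, Glb1, Arsa, Naglu, Sgsh, Gaa and Lgmn. Each CACGTG found in the members' windows lay in promoters of these same 8 genes. Of all genes with a promoter, 8.09% had CACGTG, as did 25.8% of the other lysosomal genes. Stretches around the E-box are given for 6 of the 8 genes, which span their range of G93A change in untreated mice at 155 days, from Naglu at 1.85 to Gaa at -0.08, each read 5′ to 3′ on the strand of the gene, with CACGTG in capitals. They lie on GRCm38.p6 at chr8:13159081-13159160 (plus strand) for Lamp1, chr11:101069984-101070033 (plus) for Naglu, chr9:114400998-114401057 (plus) for Glb1, chr15:89477425-89477504 (minus) for Arsa, chr11:119355531-119355590 (minus) for Sgsh and chr11:119267793-119267852 (plus) for Gaa.
Lamp1: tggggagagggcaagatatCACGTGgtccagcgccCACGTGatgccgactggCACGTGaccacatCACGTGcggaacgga
Naglu: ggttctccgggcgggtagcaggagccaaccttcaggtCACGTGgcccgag
Glb1: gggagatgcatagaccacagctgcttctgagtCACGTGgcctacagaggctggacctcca
Arsa: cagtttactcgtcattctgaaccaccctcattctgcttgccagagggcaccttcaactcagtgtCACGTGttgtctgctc
Sgsh: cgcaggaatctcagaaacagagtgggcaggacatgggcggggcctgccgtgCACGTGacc
Gaa: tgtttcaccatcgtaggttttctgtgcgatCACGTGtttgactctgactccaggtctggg

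Lamp1 had 4 copies of the E-box in the 80 bases before its start, more than any of the other stretches shown, and rose by 0.63 on the log2 scale. Of the 8 members with TCACGTG, 7 rose in untreated G93A mice at 155 days and Gaa did not pass, with a median log2 fold change of 0.64. Of the 23 with a promoter in hand and without it, 20 rose, with a median of 0.85. Cd68, Grn, Laptm5 and Gusb, the genes with the largest changes, had no CACGTG in this window.

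Among 44 other lysosomal genes of the same kinds, 43 were tested at 155 days, and 25 rose and 5 fell in untreated G93A mice, with a median log2 fold change of 0.27. The nuclease Dnase2a and the tetraspanin Cd63 each rose by 2.04 (adjusted p = 1.2e-08 and 3.55e-09). Ctsa, the protective protein that forms a complex with Glb1 and Neu1, rose by 1.55. The largest falls were those of the heparan and dermatan sulfate enzyme Ids (-0.46), the amino acid transporter Slc36a1 (-0.32) and the heparan acetyltransferase Hgsnat (-0.31). Over all genes in this comparison 21.3% rose and 18.2% fell. By kind, 12 of 17 further enzymes and activators rose and 2 fell, 5 of 15 further membrane proteins rose and 3 fell, and 5 of 8 genes for delivery of enzymes to lysosomes rose. Of the MiT/TFE factors, Tfe3 rose by 0.45, Tfeb by 0.39 and Mitf by 0.24 (adjusted p = 0.0491), and Tfec was too low to be tested. With the treatments pooled at 90 days, the median log2 difference of the 43 genes tested was 0.03, with a range from -0.17 to 0.37.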

How the data were processed

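RNA from 25 mg of spinal cord was sequenced in 32 mice from stranded mRNA libraries (TruSeq). The authors deposited raw counts per gene, without normalization, for all 32 mice. The study's methods name Trimmomatic, STAR 2.4.0h, HTSeq 0.5.3p9 and the GENCODE M10 annotation of GRCm38, while the submitters' processing notes name STAR, featureCounts, edgeR and GRCm39, so the counter, build and strand setting were not settled. The table held 1306 gene identifiers numbered above the highest of GENCODE M21. Of its 42524 identifiers, 41203 were given symbols, and the members their GRCm38 positions, through GENCODE M21. The sequences come from RefSeq (GRCm38.p6).

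Groups were taken from the labels. For either age, 1 model of 4 groups was fitted to 16 mice with edgeR 4.0.16 (R 4.3.3; filterByExpr, TMM, estimateDisp, glmQLFit, glmQLFTest), without covariates; treatments were pooled by contrast of group means. Differences between ages came from a fit of all 32 mice on 19829 genes. Tests are two-sided, Benjamini-Hochberg adjustment ran over all genes tested, standard errors come from the F statistic, and intervals use its degrees of freedom. CPM used TMM factors over all libraries and log2 CPM a prior count of 2. Each mouse is 1 library, and no batch was named in the labels. Intervals and floors cover counting error and the spread between mice only. The procedure was run on simulated counts with known changes, in far fewer genes than passed between genotypes at 155 days. That run's outcome is not given and does not bear on the counts above.

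The members and gene lists were chosen with earlier results of these data known. Every member is named with its change at 155 days. Values in each mouse are given for the 5 largest and 5 smallest changes in untreated mice at 155 days, the 3 smallest p at 90 days and the 2 smallest p of each OKN-007 comparison; those of Hexa and Npc2 were added after their values were seen. The alternatives were edgeR's likelihood ratio test, DESeq2 1.42.0, no low-count filter or a minimum of 10 counts in each mouse, RLE factors, all 32 mice in a fit or only the groups compared, a Hox score covariate, a block for the sample number, a prior count of 0.5 and leaving out each mouse. No pair of libraries of a group was identical. Some items of the named-gene rule are not reported here.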

Additional observations from a re-analysis of the deposited data

Results flagged for a closer look

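In some groups of 4 mice, the value of 1 mouse was separated from the nearest other by a larger share of the group's range than Dixon's 95% limit allows. This held for 18 of 288 groups examined, where chance gives about 1 in 20 (14.4). At 155 days, untreated WT mouse 2 was high for Naglu (9.75 CPM, next 6.37), Manba (12.6, next 10.4) and Fuca1 (56.7, next 45.3). Untreated G93A mouse 10 was high for Arsa (29.1 CPM, next 24.3), and treated WT mouse 6 for Galc (39.5, next 36.5). Treated G93A mouse 16 was low for Lamp2 (158 CPM, next 175) and Ppt1 (132, next 142), and treated G93A mouse 14 for Psap (1210, next 1280). At 90 days, untreated WT mouse 2 was high for Tmem106b (115 CPM, next 94.8), mouse 1 low for Laptm5 (28.1, next 31.7) and mouse 4 low for Pla2g15 (9.35, next 9.81). Treated WT mouse 5 was low for Gm2a (73.6 CPM, next 81.6) and mouse 6 for Galns (3.43, next 4.98). Untreated G93A mouse 11 was high for Lamp1 (659 CPM, next 642), mouse 10 low for Psap (897, next 932) and mouse 9 low for Gm2a (81.8, next 88.3). Treated G93A mouse 14 was low for Glb1 (10.2 CPM, next 10.9), and mouse 15 had a high mean log2 CPM over the 34 genes (5.62, next 5.55).

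In untreated mice, 29 genes had a G93A change that was larger at 155 than at 90 days, by a test of the difference itself (edgeR's quasi-likelihood test, adjusted p from 6.66e-10 to 0.0346). Beside Cd68 (3.95), Grn (2.72), Laptm5 (2.55), Gusb (1.84) and Man2b1 (1.82), the log2 difference was 1.65 for Naglu, 1.61 for Hexa, 1.23 for Pla2g15, 1.199 for Galns, 1.14 for Creg1 and 1.05 for Npc2. It was 0.88 for Tpp1, 0.81 for Glb1, 0.80 for Lamp2, 0.67 for Lipa, 0.66 for Cln3, 0.66 for Asah1, 0.64 for Lgmn, 0.63 for Fuca1, 0.62 for Sgsh, 0.59 for Arsb and 0.57 for Gm2a. The smallest were 0.53 for Manba, 0.52 for Lamp1, 0.45 for Psap, 0.39 for Arsa, 0.36 for Ppt1, 0.35 for Scarb2 and 0.33 for Galc.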

How the results depend on the processing

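Of 14 counts of genes that passed, 13 stayed within 1.5 times the value given in the report under every alternative run. The exception was the pooled comparison at 90 days, where the count of 0 became 1 (Cd68) without a filter on low counts and also without untreated G93A mouse 12. Leaving out each mouse in turn gave 0 to 1 there, 28 to 31 for untreated and 28 to 29 for treated mice at 155 days, 30 to 31 for the pooled comparison at 155 days, 25 to 29 for the age difference in untreated mice and 29 to 30 with treatments pooled, and 0 in every other comparison. The Hox covariate gave 27 in untreated mice at 155 days and 25 in their age difference. Shares of all genes under the alternatives are not given here. No estimate of a gene in untreated mice at 155 days changed sign. Single genes that lost or gained a call were Npc1, Sgsh, Arsa, Smpd1 and Tmem106b, with the values in the report; Npc1 also missed the threshold without a filter on low counts (adjusted p = 0.0667) and with only the 2 groups compared (0.0957), and Sgsh with only those groups (0.0741). The cause was not tested. Without a filter, the median over all genes of the untreated age difference was -0.21, against -0.01 with it.

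The sample numbers recur at both ages but belong to different animals. Correlations of the deviations of same-numbered mice ran from -0.136 to 0.232 over 16 pairs, with 3 above 0.1. With the number as a block, 29 genes passed in the age difference, in untreated mice and with treatments pooled. Without the block 29 also passed in either, where 12.9% and 19.6% of all genes passed as higher.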
